A study of Mus musculus with 15 samples.

Results

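Ribosome biogenesis factors are the proteins that build ribosomes without being part of the finished particle. The set described here holds 48 mouse genes of this kind, picked by name out of the 50554 genes of each table with earlier results of these data known, and all 48 passed the filter on low counts that left 20865 genes tested. They fall into 4 factors of RNA polymerase I transcription, 4 nucleolar scaffold proteins, 3 box C/D and 4 box H/ACA small nucleolar ribonucleoprotein (snoRNP) proteins, 19 small subunit factors and 14 large subunit factors. Without lipopolysaccharide, 35 of the 48 were lower in cells labelled Δ/DN than in cells labelled Δ/+ and none was higher. Among all genes tested, 5.45% were called lower and 5.01% higher in that comparison. With lipopolysaccharide, 39 of 48 fell in Δ/+ cells and 35 of 48 in Δ/DN cells, against 25.3% and 25.1% of all genes. Wdr43 rose in both, where 22.4% and 23.1% of all genes were called higher.

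In the nucleolus, RNA polymerase I copies the ribosomal DNA into a long precursor RNA, and assembly factors join the precursor while it is still being made. Box C/D snoRNPs guide methylation of the sugar backbone and box H/ACA snoRNPs guide conversion of uridine to pseudouridine, while the small subunit processome folds and cuts the precursor and later factors carry the 2 subunits towards the cytoplasm. Many of these genes are known targets of the transcription factor MYC, and dendritic cells that meet a microbial product reorganise their metabolism and protein synthesis as they mature.

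The samples were bone marrow-derived dendritic cells (BMDCs) grown for 9 days with GM-CSF from marrow taken more than 12 weeks after tamoxifen. All mice carried the tamoxifen-inducible CreERT2 transgene, whose promoter the labels do not name, and 1 floxed Mysm1 allele, recombined to Δ in both genotypes. The second allele was wild type in the controls (CreERT2 Mysm1 fl/+, Δ/+) and encoded a catalytically inactive MYSM1, a histone H2A deubiquitinase, in the others (CreERT2 Mysm1 fl/DN, Δ/DN), so the control cells also had a single intact allele. Cells were held for 18 h unstimulated (US, 0 ng/mL) or with 10 ng/mL lipopolysaccharide (LPS), which is sensed through TLR4, giving 4 Δ/+ US, 4 Δ/DN US, 3 Δ/+ LPS and 4 Δ/DN LPS libraries. Strain, sex and age were not used here. Genotypes are those on the samples, and the series text pairs the library letters A and C with the genotypes the other way round, so every genotype direction would turn round if that text were right.

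Read totals ran from 37256651 to 104041282 per library, and the 48 genes took 0.12% to 0.37% of them. The tables count reads per gene and do not separate alleles, so the targeted gene does not check the labels. Levels are given as CPM, the reads of a gene per 1000000 reads after scaling by the trimmed mean of M values (TMM). Mysm1 lay at 50.4 ± 3.25 CPM (SD over 4 libraries) without LPS and 43.2 ± 1.71 CPM (over 3) with LPS in Δ/+, and at 41.2 ± 9.23 and 35.3 ± 3.75 CPM (over 4 each) in Δ/DN, and it passed no test. Dendritic cell markers summed to 4873 to 6423 CPM in Δ/+ US and 4849 to 7326 CPM in Δ/DN US. The 6 listed T and NK cell markers summed to 0.0466 to 0.262 CPM in Δ/+ US and 0.0520 to 0.663 CPM in Δ/DN US. In the LPS libraries they summed to 0.109 to 0.144 CPM in Δ/+ and 0.0167 to 0.343 CPM in Δ/DN. Of these markers only Trac was at 0 in all libraries. The US library of Δ/DN culture 3 stood apart in 7SL RNA (10.4% of its reads, against 3.41% to 5.66% in the other US libraries), while its LPS library held 4.03%, within the 1.61% to 5.004% of the other LPS libraries. Xist was found at over 1 CPM only in Δ/DN culture 4 (1144 and 1166 CPM), and results are also given without Δ/DN cultures 3 and 4. Labels number the replicates, but nothing says that each came from a separate mouse, so p-values measure the spread between libraries of these cultures. The main fit treats the libraries as independent, although US and LPS libraries share cultures. Fits with the culture as a block are also given. Library names carry a 2 or a 3 whose meaning is not given. Set 3 holds Δ/+ US replicate 4 and Δ/DN cultures 3 and 4, and it was a term in the model.

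In unstimulated Δ/+ cells 3 of the 4 nucleolar scaffold genes had the highest levels per kilobase among the members, while the other, Lyar, ranked 45 of 48 at 5.56 CPM per kilobase. Per kilobase of merged exon, the nucleolar chaperone Npm1 stood at 79.4 CPM, the helicase Ddx21 at 36.4 and nucleolin (Ncl) at 33.2, followed by the large subunit factor Noc2l at 28.2 and the H/ACA protein Nhp2 at 28.1. The lowest were Rrp1b at 3.49 and Wdr12 at 2.22 CPM per kilobase, both large subunit factors. Merged exons join all annotated transcripts of a gene, so this order depends on the annotation as well as on the reads. The merged length was 11955 bases for Wdr12, 7705 for Rrp1b, 2665 for Npm1 and 10188 for Ncl. Summed over the 48 genes, the level in Δ/+ was 2891 ± 270 CPM unstimulated (SD over 4 libraries) and 1794 ± 107 CPM with LPS (over 3). In Δ/DN it was 2166 ± 109 CPM unstimulated and 1613 ± 47.2 CPM with LPS (over 4 each). The lowest Δ/+ US library (2571 CPM) lay above the highest Δ/DN US library (2310 CPM).

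**Figure D1:**
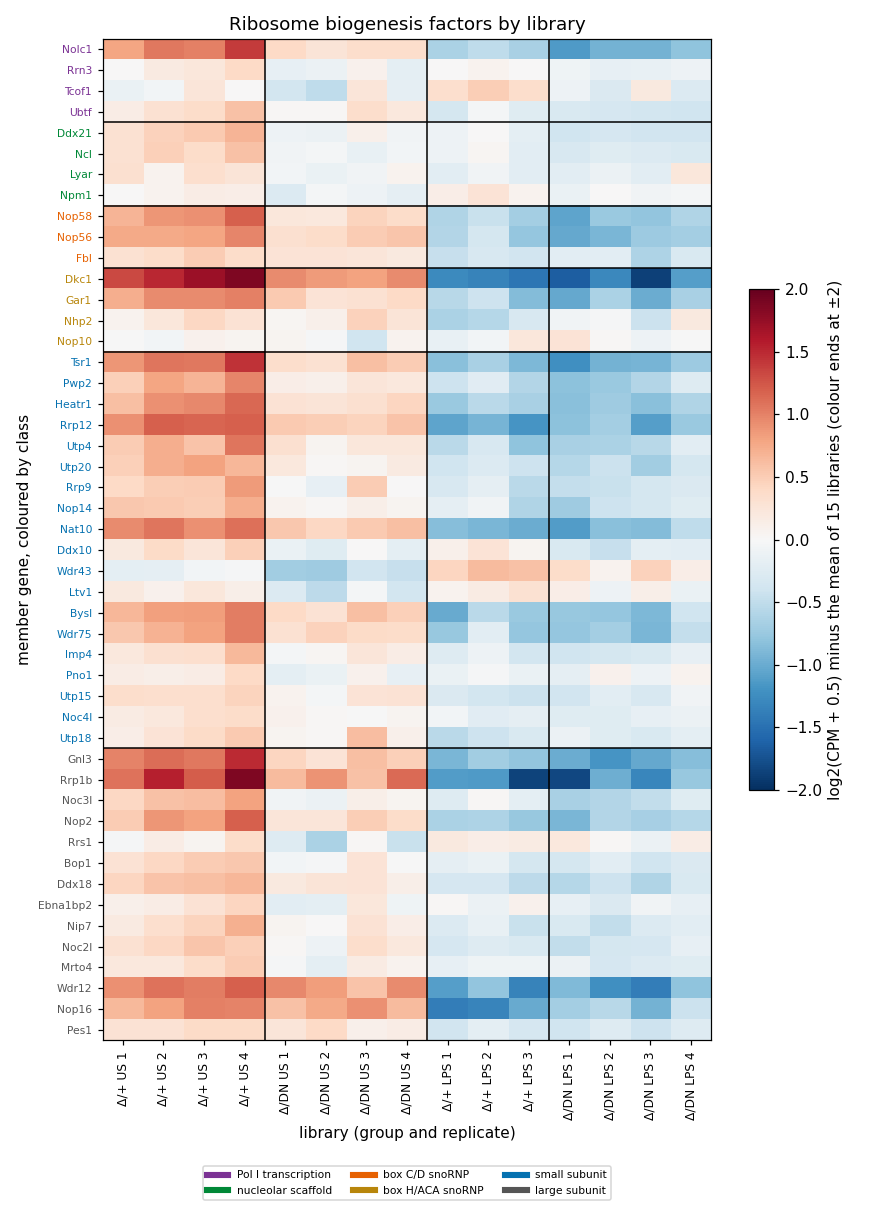
Level of each of the 48 genes (rows, grouped and coloured by class) in each of the 15 libraries (columns), as log2(CPM + 0.5) minus the gene's mean over the 15 libraries, with red above and blue below that mean. Most rows are reddest in the 4 Δ/+ US libraries and bluest in the LPS libraries, and Wdr43 shows the opposite with LPS.

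The comparison of genotypes without LPS asked how resting cells with only inactive MYSM1 differ from cells with 1 wild-type allele. With edgeR's quasi-likelihood test and Benjamini-Hochberg adjustment over all genes tested, 35 members fell in Δ/DN, 0 rose and 13 did not pass, against 5.45% of all genes called lower and 5.01% called higher. All 48 fitted log2 differences were below 0, from -0.79 to -0.07, with a median of -0.45 against 0.01 for all genes. In 32 members every Δ/DN library lay below every Δ/+ library, which held for 6.2% of all genes, and in 0 members every Δ/DN library lay above (6.28% of all genes). Since these are bulk samples, fewer cells of a type and less RNA per cell cannot be told apart. When each of the 8 US libraries was dropped in turn, 12 members were called every time: Nolc1, Ncl, Ddx21, Nop58, Heatr1, Wdr43, Pwp2, Utp20, Ddx10, Tsr1, Noc3l and Gnl3. Dropping Δ/+ US replicate 4 brought the count to 12 and dropping Δ/+ US replicate 2 brought it to 20, while 17 remained called lower on dropping Δ/DN US replicate 2 and 21 on dropping replicate 4 of that group. Among all genes 120, 378, 252 and 527 were called lower in these refits, in the same order. Within library set 2 the count was 24 with a median of -0.47, beside 861 of all genes lower. If culture 3 of Δ/DN was left out 39 members fell, if culture 4 was left out 28 fell, and 24 fell with neither in the fit. Among all genes 2138, 859 and 940 were called lower in those fits. DESeq2 called 39 lower and limma voom with the culture as a random replicate block 36, both with 0 higher. Among all genes they called 1766 and 1305 lower and 1694 and 1330 higher. Scaling by library totals called 18 lower and 0 higher, with 539 genes lower and 844 higher among all genes in place of 1138 and 1046.

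Among factors of RNA polymerase I transcription, 2 of 4 fell. Nolc1, a phosphoprotein that binds treacle and snoRNPs, lay at 55.4, 66.9, 64.3 and 84.3 CPM in the 4 Δ/+ US libraries and at 41.9, 38.1, 40.8 and 40.5 CPM in the 4 Δ/DN US libraries. Its groups did not overlap, and the log2 difference was -0.78 ± 0.10 (SE, adjusted p = 0.000915). Rrn3, the initiation factor TIF-IA that brings the polymerase to the promoter, lay at 54.2, 61.2, 63.2 and 71.2 CPM in Δ/+ and at 48.2, 49.9, 57.6 and 47.2 CPM in Δ/DN. Δ/DN replicate 3 reached into the Δ/+ range, and the difference was -0.33 ± 0.08 (adjusted p = 0.0265). Ubtf, which binds ribosomal DNA (-0.24 ± 0.10, adjusted p = 0.125), and Tcof1, which encodes treacle (-0.27 ± 0.14, adjusted p = 0.234), did not pass.

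The nucleolar scaffold genes gave 2 of 4 lower. Ddx21, a helicase that links the polymerase to snoRNPs, had 165, 184, 192 and 214 CPM in Δ/+ and 125, 123, 144 and 127 CPM in Δ/DN, a log2 difference of -0.57 ± 0.08 (adjusted p = 0.0039). Ncl, an abundant RNA-binding protein of the nucleolus, had 308, 348, 323 and 376 CPM in Δ/+ and 237, 241, 224 and 241 CPM in Δ/DN (-0.53 ± 0.09, adjusted p = 0.00487). Every Δ/DN library was below every Δ/+ library for both. Npm1 (-0.24 ± 0.08, adjusted p = 0.0772) and the zinc finger protein gene Lyar (-0.34 ± 0.11, adjusted p = 0.0736) also had groups that did not overlap, but neither passed.

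Of the snoRNP proteins, the 2 scaffold proteins of box C/D particles fell and their enzyme did not pass. Nop58 lay at 52.3, 60.4, 61.5 and 75.4 CPM in Δ/+ and at 38.2, 37.7, 44.5 and 41.9 CPM in Δ/DN (-0.68 ± 0.09, adjusted p = 0.00247). Nop56 lay at 69.9, 70.2, 71.7 and 81.3 CPM in Δ/+ and at 51.7, 53.1, 58.5 and 60.7 CPM in Δ/DN (-0.44 ± 0.08, adjusted p = 0.00905). For both, the highest Δ/DN library stayed under the lowest Δ/+ library. Fbl, the methyltransferase fibrillarin, had a log2 difference of -0.11 ± 0.09 (adjusted p = 0.43). In the box H/ACA particles the pseudouridine synthase dyskerin (Dkc1) had 28.8, 33.1, 38.3 and 42.7 CPM in Δ/+ and 22.1, 20.8, 20.2 and 22.1 CPM in Δ/DN (-0.77 ± 0.16, adjusted p = 0.013). Its partner Gar1 had 9.88, 11.6, 11.6 and 12.2 CPM in Δ/+ and 8.52, 7.08, 7.26 and 7.76 CPM in Δ/DN (-0.57 ± 0.15, adjusted p = 0.0285). Neither gene's groups overlapped. The other H/ACA core proteins, Nhp2 (-0.07 ± 0.14) and Nop10 (-0.07 ± 0.13), had overlapping groups and did not pass.

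Small subunit factors gave 17 of 19 lower, with a class median of -0.51. Tsr1, a GTPase-like factor of late small subunit maturation, had 60.5, 68.6, 67.8 and 89.1 CPM in Δ/+ and 41.8, 40.3, 49.6 and 46.4 CPM in Δ/DN (-0.75 ± 0.09, adjusted p = 0.000856). Heatr1, a large protein of the UTP-A complex that joins the precursor early, had 132, 163, 169 and 193 CPM in Δ/+ and 107, 104, 109 and 118 CPM in Δ/DN (-0.62 ± 0.10, adjusted p = 0.00441). The Δ/DN libraries of both lay within a narrow band below all Δ/+ libraries. Besides Heatr1, the UTP-A members Utp4 (-0.58), Wdr43 (-0.49) and Utp15 (-0.26) fell, and Wdr75 (-0.42 ± 0.14, adjusted p = 0.0636) did not pass. With the culture as a random block in limma voom, Wdr75 passed (adjusted p = 0.0386) and Utp15 did not (adjusted p = 0.0552). In the UTP-B complex Pwp2 fell (-0.64 ± 0.10), and Utp18 (-0.16 ± 0.12, adjusted p = 0.424) did not pass. The processome proteins Utp20 (-0.56), Rrp9 (-0.55), Nop14 (-0.55) and Imp4 (-0.35), the helicase Ddx10 (-0.51) and the Nop14 partner Noc4l (-0.25) fell. So did the RNA acetyltransferase Nat10 (-0.54) and the late maturation and export factors Rrp12 (-0.61), Ltv1 (-0.47), Bysl (-0.45) and Pno1 (-0.34).

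Large subunit factors gave 10 of 14 lower. Gnl3, the nucleolar GTPase nucleostemin, had the largest fitted difference of the 48. It lay at 48.7, 52.9, 50.9 and 69.1 CPM in Δ/+ and at 32.8, 29.3, 37 and 33.7 CPM in Δ/DN (-0.79 ± 0.09, adjusted p = 0.000783). Noc3l, an assembly factor of early large subunit particles, lay at 29.1, 33.0, 33.9 and 38.3 CPM in Δ/+ and at 20.7, 20.2, 23.7 and 22.6 CPM in Δ/DN (-0.68 ± 0.09, adjusted p = 0.00182). The groups of neither overlapped. The RNA methyltransferase Nop2 (-0.59), Rrs1 (-0.49), which takes part in recruiting the 5S particle, Bop1 (-0.41), the helicase Ddx18 (-0.37) and Ebna1bp2 (-0.37) fell, as did Nip7, Noc2l and Mrto4 (each -0.36). Of the 3 proteins of the PeBoW complex Bop1 fell, while Pes1 (-0.10 ± 0.08) and Wdr12 (-0.23 ± 0.16) did not pass. Rrp1b had a large but imprecise difference (-0.71 ± 0.24, adjusted p = 0.0743), which passed with that block (adjusted p = 0.0169), and Nop16 (-0.17 ± 0.13) had overlapping groups.

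**Figure D2:**
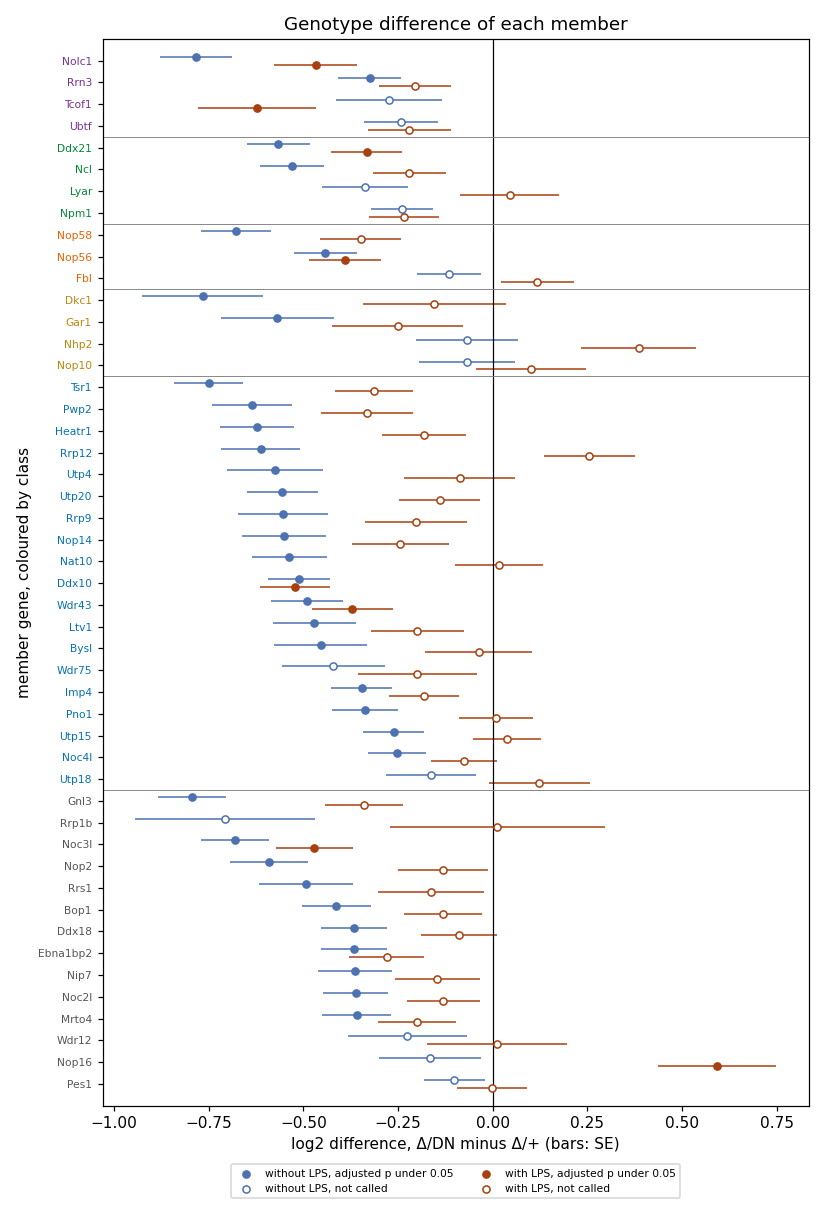
Log2 difference between genotypes (Δ/DN minus Δ/+, horizontal axis, bars are SE) of each of the 48 genes, without LPS in blue (4 against 4 libraries) and with LPS in red (4 against 3), with filled points for adjusted p under 0.05. All blue points are below 0, from -0.79 to -0.07, and the red points run from -0.62 for Tcof1 to 0.59 for Nop16.

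Other genes of the pathway were counted in the same fit, where 5.45% of all genes were called lower and 5.01% higher. Of 10 subunits and factors of RNA polymerase I tested, 5 fell and 0 rose, among them the catalytic subunits Polr1a (-0.64 ± 0.11) and Polr1b (-0.85 ± 0.20) and the promoter factor gene Taf1c (-0.44 ± 0.10). Of 37 other small subunit factors, 16 fell and 0 rose, led by Nol10 (-0.47 ± 0.08), Nol6 (-0.47 ± 0.08) and the RNA methyltransferase Dimt1 (-0.58 ± 0.10). Of 48 other large subunit factors, 23 fell and 0 rose, with the giant ATPase Mdn1 (-0.81 ± 0.11), Ppan (-0.80 ± 0.12) and Urb2 (-0.56 ± 0.09) ahead. Genes for snoRNP assembly and nucleases that trim ribosomal RNA gave 1 lower and 0 higher of 20, the box C/D protein gene Snu13 (-0.35 ± 0.09). That count is near the share of all genes and is not read as a result about this list. Medians were -0.30, -0.28, -0.33 and -0.14 for the 4 lists.

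Genes of other programmes and markers of other cell types were also called between the same libraries, where 5.45% of all genes were called lower and 5.01% higher. Cell cycle genes rose in 20 of 25 cases (median 1.08), including the replication genes Gins2 (1.19 ± 0.20) and Cdc6 (1.67 ± 0.31), and their summed level was 567 to 860 CPM in Δ/+ US and 946 to 1592 CPM in Δ/DN US. The 9 neutrophil markers summed to 52.8 to 119 CPM in Δ/+ US and 90.0 to 957 CPM in Δ/DN US, and 1, Csf3r, rose. Over the Δ/DN US libraries the SD exceeded the mean for S100a8 (105 ± 124 CPM), S100a9 (117 ± 157), Ltf (36.6 ± 56.6) and Ngp (50.2 ± 69.8). It did not for Csf3r (12.2 ± 5.84 CPM). The high sums were thus not shared evenly by the libraries of that group. Of 6 haematopoietic progenitor markers 2 rose, with summed levels of 21.1 to 23.3 CPM in Δ/+ US and 18.9 to 46.4 CPM in Δ/DN US. Of 10 macrophage markers Cd68 fell (-0.37 ± 0.10) and 3 genes for complement C1q chains rose, C1qa by 0.94 ± 0.14, C1qc by 0.67 ± 0.17 and C1qb by 0.60 ± 0.18, with sums of 1798 to 2141 CPM in Δ/+ US and 1711 to 2267 CPM in Δ/DN US. Of 11 dendritic cell markers 2 rose, Kmo (2.06 ± 0.40) and Dpp4 (1.24 ± 0.36). Of 6 stromal and endothelial markers Col1a2 and Sparc rose, each at a mean under 1 CPM in both groups, and Pecam1 (-1.11 ± 0.25) and Lepr (-1.08 ± 0.21) fell, with sums of 22.4 to 29.7 CPM in Δ/+ US and 10.1 to 15.9 CPM in Δ/DN US. Of 3 erythroid markers tested 2 rose, where all 6 listed summed to 0.0954 to 0.574 CPM in Δ/+ US and 0.777 to 1.60 CPM in Δ/DN US. Of 7 mast cell and basophil markers Cd200r3 rose (0.74 ± 0.23), with sums of 22.7 to 26.7 CPM in Δ/+ US and 24.8 to 57.0 CPM in Δ/DN US. Kit and Gata2 are in both this list and the progenitor list, so the sums of these lists are not separate. Kit had means of 16.9 CPM in Δ/+ US and 21.4 CPM in Δ/DN US and was not called (0.18 ± 0.21). None of 5 monocyte, 6 B cell and 1 T and NK cell markers tested passed edgeR's test, where 1 monocyte marker and 0 of the others had an unadjusted p under 0.05, and DESeq2 and limma voom with the culture as a random block each called 1 monocyte marker lower and 0 of the others. The part of these lists in the lower levels of the 48 genes was not tested. Myc lay at 43.2, 45.2, 53.5 and 74.6 CPM in Δ/+ and at 35.6, 38.2, 50.8 and 48.3 CPM in Δ/DN without LPS. These groups overlapped, and the difference of -0.44 ± 0.21 did not pass (adjusted p = 0.207). In the MYC network of 10 genes tested, the MAX partner gene Mxd3 rose (1.44 ± 0.33) and Mga fell (-0.38 ± 0.08).

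Promoters are shown because so many of these genes were lower together, and because the hexamer CACGTG is the E-box that MYC and its partner MAX bind. The window ran from 250 bases before to 50 bases after the start of each gene (RefSeq, GRCm38.p6), and 42 of the 48 genes matched. CACGTG, which reads the same on both strands, stood in 11 of 42 windows (26.2%, exact 95% interval 13.9% to 42.0%) and in 1371 of 17450 windows of other protein-coding genes (7.86%). Before the start it was in 4 of 42 (9.52%) against 6.63%, and within the 50 bases after it in 7 of 42 (16.7%) against 1.11%. A match describes letters only and shows no binding. Stretches of up to 30 bases around the hexamer (capitals) follow, 5′ to 3′ on the gene's strand. Positions are counted from the start, with the first base before it as base -1 and the first transcribed base as base 1. The 4 genes with the hexamer before the start are the polymerase factor Rrn3, which holds it in 2 places, the small subunit genes Imp4 and Utp18, and the large subunit gene Nop2.
Imp4, chr1:34439696-34439725, plus strand, hexamer from base -121: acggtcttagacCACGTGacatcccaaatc
Nop2, chr6:125131811-125131840, plus strand, hexamer from base -60: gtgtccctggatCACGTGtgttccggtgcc
Rrn3, chr16:13780472-13780501, plus strand, hexamer from base -215: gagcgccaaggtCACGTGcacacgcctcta
Rrn3, chr16:13780639-13780668, plus strand, hexamer from base -48: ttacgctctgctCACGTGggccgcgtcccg
Utp18, chr11:93885769-93885798, minus strand, hexamer from base -20: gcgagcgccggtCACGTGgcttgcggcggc

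In the other 7 genes the hexamer lay in the first 50 transcribed bases. They are 6 small subunit factors (Ltv1, Pno1, Tsr1, Utp4, Utp20 and Wdr43) and the PeBoW gene Pes1.
Ltv1, chr10:13193092-13193121, minus strand, hexamer from base 29: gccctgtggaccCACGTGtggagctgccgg
Pes1, chr11:3963965-3963994, plus strand, hexamer from base 3: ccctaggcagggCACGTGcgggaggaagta
Pno1, chr11:17211540-17211564, minus strand, hexamer from base 38: tgtacaaccacgCACGTGttcctct
Tsr1, chr11:74898092-74898121, plus strand, hexamer from base 25: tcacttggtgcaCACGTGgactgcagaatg
Utp20, chr10:88826765-88826789, minus strand, hexamer from base 38: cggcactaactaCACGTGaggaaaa
Utp4, chr8:106893643-106893672, plus strand, hexamer from base 16: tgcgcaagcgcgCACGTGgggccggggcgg
Wdr43, chr17:71616220-71616249, plus strand, hexamer from base 18: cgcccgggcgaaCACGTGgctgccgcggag

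Of these 11 genes, Rrn3, Imp4, Utp4, Utp20, Tsr1, Wdr43, Ltv1, Pno1 and Nop2 fell without LPS, and Utp18 and Pes1 did not pass. Of all 48 members 35 fell, and a link between the hexamer and the fall was not tested. Gnl3, the member with the largest genotype difference, had no CACGTG in its window. The 100 bases before the start of Gnl3 and of Nop2 are set beside each other to show a member without and a member with the hexamer, both of which fell.
Gnl3, chr14:31019132-31019231, minus strand: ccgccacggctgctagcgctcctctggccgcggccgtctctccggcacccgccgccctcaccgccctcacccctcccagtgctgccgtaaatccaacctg
Nop2, chr6:125131783-125131882, plus strand: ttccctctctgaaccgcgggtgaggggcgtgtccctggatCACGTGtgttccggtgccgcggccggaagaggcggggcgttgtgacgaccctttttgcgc

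With LPS the genotypes were compared over 4 Δ/DN and 3 Δ/+ libraries. The libraries differ from those above but come from the same cultures. Of the 48 members 7 fell and 1 rose, against 3.23% of all genes called lower, 5.37% called higher and 8.6% called in either direction, and the median was -0.17 against 0.01 for all genes. In 7 members every Δ/DN library was below every Δ/+ library (12% of all genes), and in 2, Nop16 and Utp18, every Δ/DN library was above (12.6% of all genes). None of the 8 calls held in all 7 refits that left out 1 LPS library. The count of lower members was 0 without Δ/DN LPS replicate 2, 0 without Δ/+ LPS replicate 2 and 2 without Δ/+ LPS replicate 1. Among all genes 72, 37 and 119 were called lower in these refits. An edgeR fit of only these 7 libraries called 0 members in either direction, with 7 genes lower and 5 higher among all genes. In that fit 9 members were lower and 2 higher at an unadjusted p under 0.05, against 10.7% of all genes lower and 12.1% higher. DESeq2 called 10 lower and 1 higher, with 1186 genes lower and 1831 higher among all genes. Scaling by library totals gave 1 lower and 1 higher, with 339 genes lower and 1424 higher among all genes in place of 674 and 1121. All 3 Δ/+ LPS libraries were of set 2, so the set term used here was estimated from the other groups. Without that term 1 member was lower and 1 higher, with a median of -0.10, beside 454 genes lower and 1002 higher among all genes.

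Ddx10, a helicase of the small subunit processome, had the smallest p. It lay at 29.3, 32.9 and 28.4 CPM in Δ/+ LPS and at 22, 19.8, 23.7 and 23.5 CPM in Δ/DN LPS, without overlap (-0.52 ± 0.09, adjusted p = 0.00893). Noc3l lay at 18.1, 22.3 and 18.9 CPM in Δ/+ LPS and at 13.8, 14.5, 15.4 and 18.3 CPM in Δ/DN LPS (-0.47 ± 0.10, adjusted p = 0.0174). Δ/DN replicate 4 reached the Δ/+ range in this gene. Nolc1 lay at 20.3, 22.3 and 20.2 CPM against 14.2, 16.3, 16.2 and 18.0 CPM, again without overlap (-0.47 ± 0.11, adjusted p = 0.0231). Ddx10 and Noc3l kept their call in 5 of the 7 refits and Nolc1 in 4.

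The remaining members that fell with LPS were Nop56 (-0.39 ± 0.10), Ddx21 (-0.33 ± 0.09), Wdr43 (-0.37 ± 0.11) and Tcof1. Tcof1 had 85.4, 95 and 86.6 CPM in Δ/+ LPS and 63.0, 55.2, 77.7 and 55.8 CPM in Δ/DN LPS (-0.62 ± 0.16, adjusted p = 0.0296). Its highest Δ/DN library was that of replicate 3, which also held the highest Δ/DN US value, and its call held in 4 of 7 refits. The 35 genes that fell without LPS and the 7 that fell with it had 6 in common, 17.1% of the first set and 85.7% of the second, and Tcof1 was the other. Since 35 of all 48 members fell without LPS, most of any 7 members would be shared, and the overlap is not read as a result. Nop16 went the opposite way, with 5.02, 5.24 and 6.64 CPM in Δ/+ LPS and 8.43, 9.23, 6.96 and 10.1 CPM in Δ/DN LPS (0.59 ± 0.16, adjusted p = 0.0353, called in 2 of 7 refits). It did not pass with the culture as a random block in limma voom (adjusted p = 0.0746). Of the other pathway genes, 7 of 37 small subunit factors fell, led by Rcl1 (-0.73 ± 0.10), as did 6 of 48 large subunit factors, led by Urb2 (-0.44 ± 0.10). In this comparison 3.23% of all genes were called lower and 5.37% higher. None of 10 polymerase genes and none of 20 genes for snoRNP assembly and trimming passed, in the same edgeR fit, where 2 and 4 of them had an unadjusted p under 0.05 (25.3% of all genes in either direction), and DESeq2 called 1 of each list. Cell cycle genes rose in 13 of 25 cases and fell in 1 with LPS, at 552 to 644 CPM in Δ/+ LPS and 778 to 1242 CPM in Δ/DN LPS in sum, and their part was not tested.

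The response to LPS was asked within each genotype. It shares the US libraries with the genotype comparison above, so the values are given side by side and no likeness between them is counted. In Δ/+ cells, 39 members fell and 2 rose after 18 h, against 25.3% of all genes called lower and 22.4% called higher. The median was -0.73 against -0.08 for all genes, and in 40 members every LPS library was below every US library (27.8% of all genes). Of the 41 calls, 38 held in all 7 refits without 1 Δ/+ library. LPS changed what the libraries were made of: TMM factors were 0.73 to 0.94 in LPS libraries and 1.04 to 1.33 in US libraries. Scaling by library totals moved the median of all genes by -0.65 in Δ/+ and -0.58 in Δ/DN. Under it, 46 members fell and 0 rose in Δ/+, with 11211 genes lower and 2317 higher among all genes against 5287 and 4664 in the TMM fit.

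Gnl3 had the smallest p in Δ/+ cells, dropping from 55.4 ± 9.27 CPM (SD, n = 4) to 12.5, 14.7 and 13.8 CPM (-1.95 ± 0.10, adjusted p = 6.3e-09). Rrp12, a factor of small subunit processing and export, had 34.3, 41.6, 40.7 and 41.6 CPM in US libraries and 8.33, 9.11 and 7.61 CPM with LPS (-2.25 ± 0.12, adjusted p = 7.5e-09). Tsr1 dropped to 18.0, 20.4 and 17.3 CPM (-1.86 ± 0.10, adjusted p = 9.6e-09). In these 3 genes the highest LPS library held less than the lowest US library. The steepest fall of all 48 was that of Dkc1, to 4.38, 4.16 and 3.85 CPM (-3.08 ± 0.20, adjusted p = 2.3e-08), followed by Rrp1b (-2.86 ± 0.29), Wdr12 (-2.21 ± 0.18), Nop16 (-2.18 ± 0.16) and Nat10 (-1.93 ± 0.11).

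The classes are described by their counts in Δ/+ cells, without a test between them. All 3 box C/D proteins fell (median -1.34), as did 3 of 4 H/ACA proteins (median -1.18), 16 of 19 small subunit factors (median -0.86) and 12 of 14 large subunit factors (median -0.70). Among scaffold proteins Ncl (-0.52 ± 0.09), Ddx21 (-0.56 ± 0.09) and Lyar (-0.41 ± 0.12) fell, and Npm1 stood at 0.08 ± 0.09 (adjusted p = 0.499). Within the H/ACA particle Dkc1, Gar1 (-1.63 ± 0.17) and Nhp2 (-0.74 ± 0.15) fell while Nop10 stood at -0.04 ± 0.14 (adjusted p = 0.85). Of the polymerase factors Nolc1 (-1.64 ± 0.11) and Ubtf (-0.52 ± 0.11) fell, Rrn3 did not pass (-0.15 ± 0.09), and Tcof1 rose (0.43 ± 0.15, adjusted p = 0.0259), a call held in 3 of 7 refits that turned to -0.22 when scaled by library totals. Nop10 and Npm1 were the members that passed in none of the 4 comparisons within a genotype or a stimulus.

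**Figure D3:**
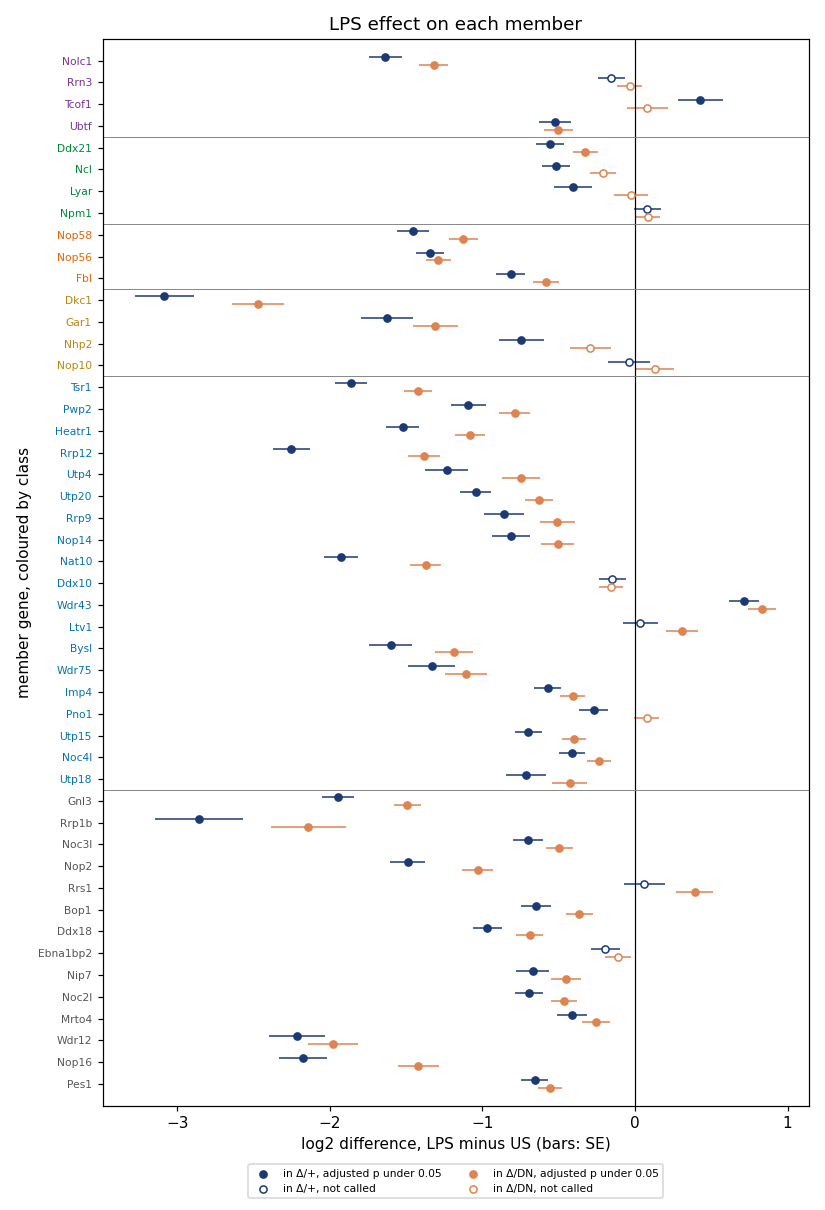
Log2 difference between LPS and US libraries (horizontal axis, bars are SE) of each of the 48 genes, in Δ/+ cells in dark blue (3 against 4 libraries) and in Δ/DN cells in orange (4 against 4), with filled points for adjusted p under 0.05. Points run from -3.08 for Dkc1 in Δ/+ to 0.83 for Wdr43 in Δ/DN, and most Δ/DN points lie nearer to 0 than the Δ/+ point of the same gene.

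In Δ/DN cells, 35 members fell with LPS and 3 rose, against 25.1% of all genes called lower and 23.1% called higher, with a median of -0.50 against -0.09 for all genes. In 35 members every LPS library was below every US library (20.8% of all genes), and 34 of the 38 calls held in all 8 refits without 1 Δ/DN library. All 35 genes that fell here had fallen in Δ/+ too, where they made up 89.7% of the 39, and the other 4 were Lyar, Ncl, Nhp2 and Pno1. Since 39 of all 48 members fell in Δ/+, most of any 35 members would be shared, and this overlap is not read as a result. With the culture that US and LPS libraries share as a replicate block, which leaves out Δ/+ US replicate 4, Ncl (-0.21, adjusted p = 0.0393) and Nhp2 (-0.30, adjusted p = 0.0483) passed in Δ/DN and Pno1 (-0.24, adjusted p = 0.0575) no longer passed in Δ/+. Gnl3 again had the smallest p, from 32.8, 29.3, 37 and 33.7 CPM to 11.9, 10.4, 11.7 and 13.2 CPM (-1.49 ± 0.09, adjusted p = 1.9e-08). Tsr1 dropped to 13.6, 16.6, 16.8 and 19.3 CPM (-1.42 ± 0.09, adjusted p = 2.6e-08) and Nop56 to 20.1, 21.6, 24.8 and 25.5 CPM (-1.29 ± 0.08, adjusted p = 3e-08). All 3 had LPS libraries wholly below the US libraries. Dkc1 was again the steepest (-2.47 ± 0.17), with 3.25, 4.35, 2.75 and 5.01 CPM after LPS.

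Wdr43, a UTP-A protein, rose with LPS in both genotypes while the other 4 UTP-A genes of this set fell. It went from 57.0, 57.4, 62.7 and 64.2 CPM to 88.5, 102 and 98.5 CPM in Δ/+ (0.72 ± 0.10, adjusted p = 3.2e-05) and from 40.0, 39.9, 50.2 and 47.6 CPM to 84.6, 68.8, 89.9 and 72 CPM in Δ/DN (0.83 ± 0.09, adjusted p = 3.8e-06). LPS and US libraries did not overlap in either genotype. An exon of Wdr43 overlaps an antisense gene, and use of strand in counting is not given in the sources used here, so reads of the 2 cannot be told apart. The other UTP-A genes of this set were Heatr1 (-1.52 and -1.08), Utp4 (-1.23 and -0.75), Wdr75 (-1.33 and -1.11) and Utp15 (-0.70 and -0.40), with the value in Δ/+ first. Rrs1 went from 31.7, 24.6, 39.0 and 28 CPM to 44.1, 38.7, 35.3 and 42.6 CPM in Δ/DN (0.39 ± 0.12, adjusted p = 0.0153), with overlap. Ltv1 went from 22.1, 18.7, 26.3 and 20.8 CPM to 29.7, 25.1, 29.3 and 24.5 CPM (0.31 ± 0.11, adjusted p = 0.0261), also with overlap. Rrs1 and Ltv1 turned to -0.17 and -0.27 when scaled by library totals, and their calls held in 5 and 4 of 8 refits.

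**Figure D4:**
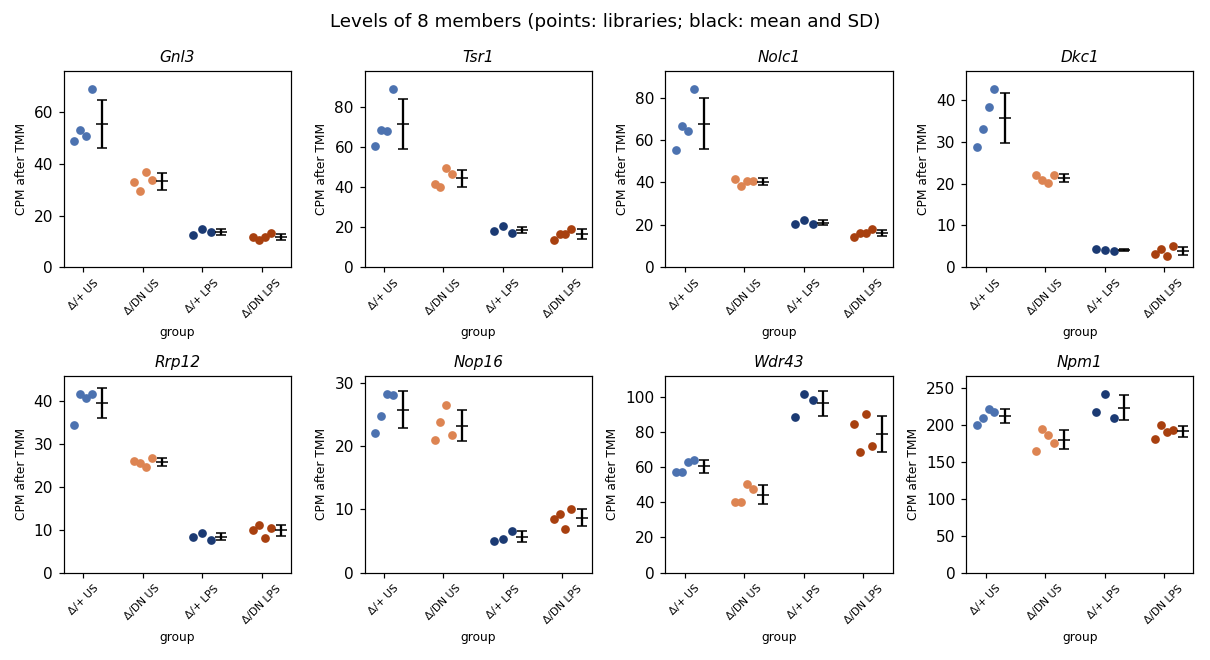
Level (CPM after TMM scaling, axis from 0) of 8 genes in each library of the 4 groups, with the mean and SD of each group in black. Gnl3, Tsr1, Nolc1, Dkc1 and Rrp12 step down from Δ/+ US to Δ/DN US and again to the LPS groups, Nop16 is lowest in Δ/+ LPS, Wdr43 is highest with LPS, and Npm1 stays between 164 and 242 CPM.

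Other pathway genes were called in both directions with LPS, and their counts stand beside 25.3% of all genes called lower and 22.4% called higher in Δ/+, so the counts of higher genes are not read as a result about these lists. In Δ/+ cells 21 of 37 other small subunit factors fell and 10 rose, among them Wdr46 (-1.41 ± 0.11) and Rcl1 (2.01 ± 0.10), an early processing factor related to RNA cyclases. Of 48 other large subunit factors 30 fell and 9 rose, from Ppan (-2.07 ± 0.13) to Sbds (2.54 ± 0.18), which acts in the last steps of large subunit maturation. Polymerase genes gave 4 lower and 2 higher of 10, with Polr1b at -2.81 ± 0.24, and snoRNP assembly and trimming genes 10 lower and 2 higher of 20, with Exosc7 at -1.57 ± 0.18 and the exonuclease gene Xrn2 at 1.03 ± 0.11. In Δ/DN cells the counts were 18 lower and 9 higher, 26 and 9, 4 and 2, and 11 and 1 for the same lists, beside 25.1% of all genes called lower and 23.1% called higher. Sbds (2.56 ± 0.17) and Rcl1 (1.62 ± 0.09) rose there too. Myc dropped to 4.55, 3.51 and 6.86 CPM in Δ/+ LPS (-3.28 ± 0.26) and to 5.77, 8.27, 6.60 and 12.9 CPM in Δ/DN LPS (-2.37 ± 0.22), its MAX-binding antagonist Mxd1 rose (2.85 ± 0.19 and 2.29 ± 0.18) and Mnt fell (-2.21 ± 0.16 and -1.93 ± 0.14).

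Whether the LPS effect differed between genotypes was tested as an interaction. By edgeR's quasi-likelihood test 0 of 48 members passed, against 0.00479% of all genes (1 of 20865) in either direction, and 19 had an unadjusted p under 0.05, all above 0, against 8.98% of all genes in either direction and 5.71% above 0. DESeq2 called 1 member and limma voom with the culture as a random replicate block called 0. Of the fitted interactions 46 lay above 0, with a median of 0.29 against 0.02 for all genes, so the drop with LPS was fitted as smaller in Δ/DN, whose US levels were lower. The interaction is also the genotype difference with LPS minus that without LPS, and all 48 of the latter were below 0. Its signs and unadjusted p-values share that shift in the US libraries and are not counted as separate evidence. Rrp12 was nearest to the threshold: its LPS effect was -2.25 in Δ/+ and -1.38 in Δ/DN, with LPS levels of 8.33, 9.11 and 7.61 CPM against 9.86, 11, 8.09 and 10.4 CPM. The difference was 0.87 ± 0.15 (adjusted p = 0.161). It passed with the culture as a replicate block (0.83 ± 0.14, adjusted p = 0.029), without Δ/DN culture 3 (adjusted p = 0.0336), without Δ/DN LPS replicate 3 (adjusted p = 0.0419), without a filter on low counts (adjusted p = 0.0189) and with DESeq2 (adjusted p = 0.00103). Among all genes these fits called 112, 30, 9, 26 and 86 higher and 44, 14, 6, 8 and 32 lower, in the same order. Nop16 (0.76 ± 0.20, adjusted p = 0.256) and Nat10 (0.55 ± 0.15, adjusted p = 0.257) came next. Nat10 had 42.7, 46.8, 42.0 and 47.7 CPM in Δ/+ US, 32.1, 29.5, 32 and 33.7 CPM in Δ/DN US, 12.0, 11.4 and 10.8 CPM in Δ/+ LPS and 9.86, 12.2, 11.9 and 15.5 CPM in Δ/DN LPS. Its genotype groups were apart without LPS and overlapped with it. Myc had an interaction of 0.92 ± 0.32 (adjusted p = 0.389).

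Of the 48 genes, 19 share exon sequence with another annotated gene (GENCODE vM21), 17 of them with a gene on the opposite strand, such as Gnl3 with Pbrm1, Dkc1 with Mpp1, Tsr1 with Srr and Heatr1 with Lgals8. Gnl3, Ncl, Nop56 and Nop58 also span snoRNA genes on their own strand. Counts of these members may hold reads of the partner.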

How the data were processed

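The authors deposited 1 table per library with raw counts of reads per gene and a gene length, and counting with featureCounts is given by the file names and by the submitters' processing notes. Those notes also name FastQC, Trimmomatic 0.33, HISAT2 2.2.1, edgeR, bedtools and the mouse build GRCm39, while strand use is not given in the sources used here. Ribosomal RNA was depleted before library preparation, per the labels' protocols.

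Genes were joined by symbol. Counts were tested with edgeR 4.0.16 (R 4.3.3) in 1 fit of all 15 libraries with 4 group means and the library set as an added term, TMM scaling, a filter of filterByExpr with minimum count 10, robust quasi-likelihood F tests and Benjamini-Hochberg adjustment over 20865 genes (threshold 0.05). SE was derived from the F statistic. The code was tested on simulated data. The members and gene lists were chosen with earlier results of these data known. Full values per library are given for the 1 or 2 members of each class with the smallest p without LPS, the 3 with the smallest p in each other comparison, and members called against the majority. Levels per kilobase used merged exons of GENCODE vM21, since the deposited length exceeded the merged length for 31 of 48 members and the deposited length planned for this step was not used. Of 13 polymerase genes listed, 10 matched a tested gene. Alternatives were RLE, library totals and protein-coding TMM scaling, no filter, no set term, fewer libraries, DESeq2 1.42.0, limma 3.58.1 voom and 2 forms of replicate block.

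Library names tie a US library to the LPS library of the same culture. Deviations of these pairs from their group means correlated at 0.06 to 0.43, and in 7 of 7 pairs the partner was the best match. Intervals on shares cover counting error only.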

Additional observations from a re-analysis of the deposited data

Results flagged for a closer look

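The levels of the 48 genes were screened in the groups of 4 libraries for a library whose gap to its nearest neighbour exceeded 0.829 of the group's range, and 5 of 144 groups tested had one, where chance alone gives about 1 in 20. In Δ/+ US, replicate 4 was high for the box C/D gene Nop56 (81.3 CPM) and the late maturation factor Pno1 (45.4 CPM), and replicate 1 was low for Rrp12 (34.3 CPM). In Δ/DN US, replicate 3 was high for Utp18 (55.6 CPM) and Bop1 (41.6 CPM). Nop56, Pno1, Rrp12 and Bop1 fell between genotypes without LPS and Utp18 did not pass. The calls of Nop56 and Rrp12 held in 7 of 8 refits without 1 US library, and those of Pno1 and Bop1 in 3 of 8.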

How the results depend on the processing

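Direction was stable for the genotype difference without LPS: the median of the 48 genes ran from -0.50 to -0.37 over all alternatives and no member reversed. The number called was less stable, from 12 to 37 lower when 1 library was left out, 18 with library totals. Among all genes the matching counts ran from 120 to 1968 lower, with 539 for library totals. With LPS the genotype median ran from -0.21 to -0.02, and the calls ranged from 0 to 7 lower and 0 to 2 higher when 1 library was left out. Over all genes tested, those refits called 37 to 875 lower and 53 to 1358 higher. Members called were 1 lower with library totals, 1 without the set term, 4 without the filter, and 0 lower and 0 higher in a fit of the compared groups alone. The first fits called 339, 454 and 558 of all genes lower, in the same order, and the last called 7 lower and 5 higher. 2 members were higher within set 2, without Δ/DN culture 3, without Δ/DN cultures 3 and 4 and with the replicate number as a block, and 0 with voom. These fits called 1118, 1597, 1146, 2230 and 1155 of all genes higher, in the same order. The LPS medians ran from -1.38 to -0.67 in Δ/+ and from -1.08 to -0.42 in Δ/DN. Leaving out 1 library gave 37 to 39 lower and 1 to 2 higher in Δ/+, 33 to 35 lower and 1 to 3 higher in Δ/DN, and 0 to 1 for the interaction. Over all genes, the Δ/+ refits called 4556 to 5047 lower and 4127 to 4509 higher. The Δ/DN refits called 4562 to 5192 lower and 4393 to 5037 higher, and the interaction 0 to 6 lower and 0 to 9 higher. Members higher with LPS were 0 with library totals and 1 without the set term in Δ/+, and 1 with library totals and 1 in a fit of the compared groups in Δ/DN. These fits called 2317, 4510, 2361 and 4278 of all genes higher, in the same order. The interaction called 1 member (Rrp12) without the filter, without Δ/DN culture 3, with the culture as a replicate block and with DESeq2. By library totals, the summed level was 3432, 2690, 1367 and 1347 per 1000000 reads in Δ/+ US, Δ/DN US, Δ/+ LPS and Δ/DN LPS. The share of promoters with the hexamer was 9.52% when only bases before the start were read.

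Values that reversed were small or came from library totals. Between genotypes with LPS, Wdr75 moved to 0.0122 without Δ/+ LPS replicate 2 (its range without 1 library began at -0.30), and under library totals Utp20 moved to 0.0139, Bop1 to 0.0198, Noc2l to 0.0244, Nop2 to 0.0218 and Nip7 to 0.000347. Under library totals Tcof1 moved to -0.22 in Δ/+ with LPS, and Npm1, Nop10, Ltv1 and Rrs1 to -0.49, -0.47, -0.27 and -0.17 in Δ/DN. Ebna1bp2 moved to 0.0047 in Δ/DN within set 2. The cause was not tested. The replicate number as a block between genotypes gave 35 members lower without LPS, beside 1915 of all genes lower. Same-numbered cultures correlated at -0.09 to 0.15 and were the best match in 2 of 7 pairs, so the genotypes share only a number. Besides the calls named in the report, the culture as a block, fixed or random, changed no other call of a member.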
